A study of Mus musculus with 6 samples.

Results

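The 9 genes described here encode hormones and carrier proteins that hepatocytes release into the blood. They were taken by name as a list, and all 9 were found by symbol among the 53599 gene symbols of the count table. The list holds Angptl4, Angptl6 and Angptl8, Fgf21, the fetuins Ahsg and Fetub, and the carriers Selenop, Rbp4 and Ttr.

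RNA-seq was performed on mouse hepatocytes 4 days after an adeno-associated virus of serotype AAV8 was injected. In the Sox4 group the vector carried HA-tagged mouse Sox4, a P2A self-cleaving peptide and Cre recombinase (AAV8-TBG-HA-Sox4-P2A-Cre; genotype label Sox4), and in the empty vector (EV) group it carried Cre alone (AAV8-TBG-Cre; genotype label WT), with 3 libraries in each group. Per the study's methods the mice were males a few weeks old that carried a Cas9-EGFP cassette, silent until Cre acts, at the Rosa26 locus, and the vector dose for RNA-seq was given for the Sox4 vector. Hepatocytes were enriched on Percoll after liberase digestion with no sort for vector-bearing cells described, so a library may average over cells with and without the vector, and the TBG promoter that drives both vectors is active in hepatocytes.

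Proteins that the liver secretes to act on other tissues are called hepatokines. The angiopoietin-like proteins ANGPTL4 and ANGPTL8 restrain lipoprotein lipase and so direct fat from the blood to one tissue or another, ANGPTL4 in fasting and ANGPTL8 after feeding. FGF21 is a fasting and stress hormone that acts through FGF receptors with the co-receptor beta-Klotho. The fetuins belong to the cystatin superfamily, SELENOP carries selenium, RBP4 carries retinol, and TTR carries thyroid hormone and holds RBP4 in the circulation.

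Total counts were 15090629 to 16964860 per library, and a count of 3, taken as the detection floor, corresponded to a TMM-scaled level (CPM, the count relative to a library's scaled total) of 0.15 to 0.231. Sox4 itself had 2, 0 and 3 counts in the EV libraries and 21697, 15097 and 11816 in the Sox4 libraries, so every library matched its label. Trimmed mean of M-values (TMM) scaling, which sets the typical gene to no change, made the Sox4 libraries 1.49 times larger than the EV libraries, whereas their total counts were 1.07 times larger. Over all 12691 genes tested TMM put the median log2 fold change at 0.04, against 0.51 when libraries were scaled by their totals (library size alone), and 52.7% against 79.9% of called genes were higher in Sox4. The summed level of 10 hepatocyte markers lay between 128000 and 151000 CPM in the EV libraries, and between 83400 and 95700 CPM in those of Sox4. Sums in EV and Sox4 were 27.5 to 43.6 and 71.6 to 84.7 CPM for 9 cholangiocyte markers, 14.4 to 30 and 32 to 73.6 CPM for 12 Kupffer cell markers, 25 to 38.8 and 25.9 to 55.6 CPM for 11 endothelial markers and 8.62 to 46.6 and 83.9 to 142 CPM for 11 stellate cell markers. Without Reln, which carried most of the stellate sum, the other 10 stellate markers summed to 1.54, 4.86 and 9.14 CPM in EV 1 to 3 and to 8.71, 25.1 and 33.1 CPM in Sox4 1 to 3, so Sox4 1 lay within the EV range (an alternative chosen after the values were seen). The hepatocyte, cholangiocyte and Kupffer sums did not overlap between the groups and the endothelial sums did, and their part in the results below was not tested. In such bulk samples, fewer cells of a type and less RNA per cell cannot be told apart.

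Among the 9 genes, Fgf21 rose 49.5-fold, Fetub fell 6.1-fold and Rbp4 fell 1.64-fold, and the other 6 did not pass the test. A gene was called when its p-value from edgeR's quasi-likelihood test, adjusted by Benjamini-Hochberg over all genes tested, was under 0.05. All 9 genes passed the filter on low counts. The share called was 3 of 9, where 55.1% of all genes tested were called. By direction, 1 of 9 was higher and 2 of 9 were lower, against 29.0% higher and 26.0% lower among all genes. The EV and Sox4 values did not overlap for 3 of 9 genes, against 63.0% of all genes tested. The median log2 fold change of the 9 genes was -0.09.

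**Figure D1:**
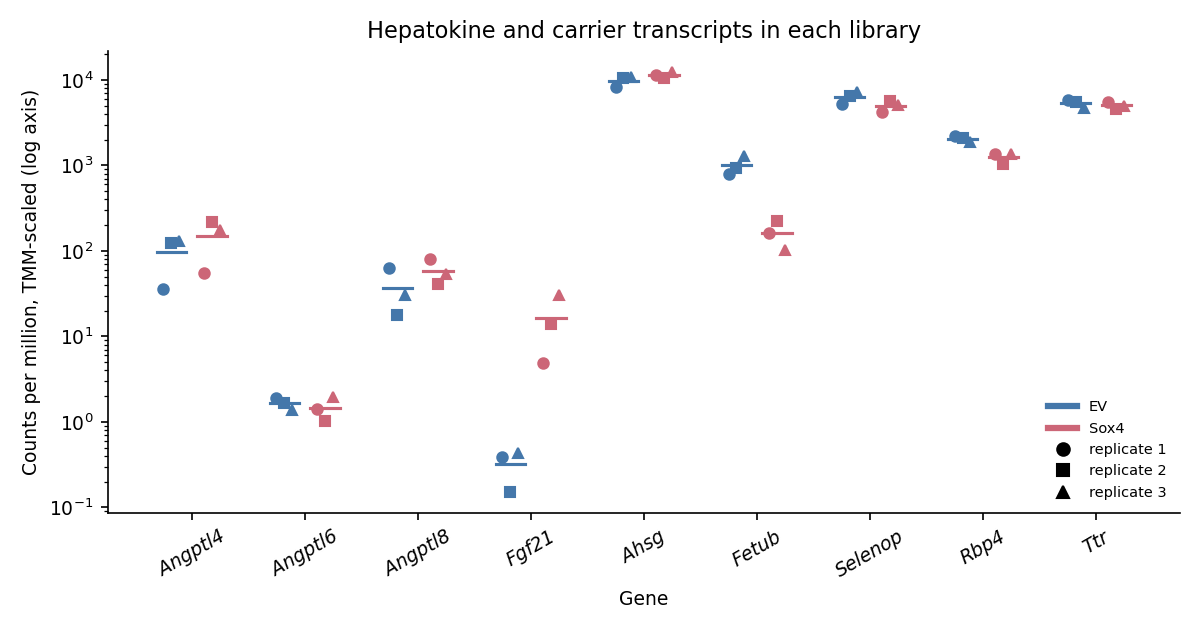
TMM-scaled CPM on a log axis for each of the 9 genes in the 3 EV (blue) and 3 Sox4 (red) libraries, with horizontal lines for group means and symbols for replicates. The groups are apart for Fgf21 (0.152 to 0.435 against 4.9 to 30.5 CPM), Fetub (786 to 1280 against 102 to 227 CPM) and Rbp4 (1880 to 2210 against 1040 to 1370 CPM), and overlap for the other 6 genes.

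The sequences before the starts of 3 of these genes are shown, Fgf21 and Fetub because they had the largest differences and Angptl8 because its window holds the same element as that of Fgf21. They come from RefSeq promoter windows on GRCm38.p6, a build other than the GRCm39 of the counts, which held 11 windows for 7 of the 9 genes. Only bases before the first annotated exon are printed, 5′ to 3′ on the gene's strand. Capitals mark TGATGNAA on either strand, the composite element bound jointly by ATF4 and C/EBP proteins, in Fgf21 (chr7:45615491-45615740, minus strand) and Angptl8 (chr9:21835260-21835509, plus strand), and ACAAAG, a core sequence bound by SOX proteins, in Fetub (chr16:22918132-22918333, plus strand).
Fgf21: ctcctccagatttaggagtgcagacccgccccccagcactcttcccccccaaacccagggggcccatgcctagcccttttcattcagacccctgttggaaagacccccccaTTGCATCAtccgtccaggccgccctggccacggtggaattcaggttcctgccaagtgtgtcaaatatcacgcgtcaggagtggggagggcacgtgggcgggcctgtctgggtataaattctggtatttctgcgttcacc
Angptl8: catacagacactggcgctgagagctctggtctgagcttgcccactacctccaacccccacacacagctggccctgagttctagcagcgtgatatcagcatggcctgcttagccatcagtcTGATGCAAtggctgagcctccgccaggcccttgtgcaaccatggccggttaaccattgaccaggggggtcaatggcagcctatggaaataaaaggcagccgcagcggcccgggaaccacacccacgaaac
Fetub: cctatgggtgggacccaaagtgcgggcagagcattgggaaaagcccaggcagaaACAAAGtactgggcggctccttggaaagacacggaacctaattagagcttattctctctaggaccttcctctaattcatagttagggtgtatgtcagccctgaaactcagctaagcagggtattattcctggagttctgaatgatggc

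The composite element began 139 bases before the start of Fgf21 on the opposite strand and 130 bases before the start of Angptl8 on the same strand. It was also found 76 bases before the first Rbp4 start, and 3.45% of the 32851 promoter windows in the table held it within the same 250 bases. ACAAAG lay 196 bases before the first RefSeq start of Fetub, which is inside the gene as GENCODE places it, so that the last 48 bases of that window, annotated as exon, are not printed. It was in 16.5% of all windows, and the other SOX core searched, ACAATG, lay 117 bases before the third Selenop start and was in 10.7%. TATAAA, the TATA box, stood 28 bases before the start of Fgf21, 31 before the first Fetub start (among the bases not printed), 28 before the second Rbp4 start and 10 before the third Selenop start, and 12.4% of all windows held it. TGTTTAC, bound by FOXA factors, was found in the second Fetub window, the third Selenop window and the first Rbp4 window, and in 3.17% of all windows. CAAAGTCCA, an HNF4A element whose first letters can overlap ACAAAG, was in no window of these genes and in 0.384% of all windows. All 6 motifs were searched on both strands, and a match is a description of letters only.

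Fgf21, which encodes the hormone, was close to the detection floor in EV hepatocytes and clearly detected in every Sox4 library. It was counted 5, 2 and 6 times in EV 1 to 3, against 98, 274 and 603 times in Sox4 1 to 3. In CPM these were 0.385, 0.152 and 0.435 in EV, a mean of 0.324 ± 0.151 (SD, n = 3), and 4.9, 14 and 30.5 in Sox4, a mean of 16.5 ± 13 (SD, n = 3). All 3 Sox4 libraries were above all EV libraries, and the Sox4 libraries themselves were widely spread, lowest in Sox4 1 and highest in Sox4 3. The log2 fold change was 5.63 ± 0.82 (SE; edgeR, adjusted p = 0.00222). Pooled over libraries, 13 counts in EV and 975 in Sox4 gave a ratio of 50.5 with an exact Poisson 95% interval of 29.4 to 95.2, which covers counting error only. Without Sox4 3 the log2 fold change was 4.83 (edgeR, adjusted p = 0.000179), and over the 6 fits that each left out 1 library it ranged up to 6.06. By level, Fgf21 moved from position 13064 to position 6475 among all genes of the table.

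The FGF21 receptor genes did not move in 1 direction. The 7 listed genes included Fap, which is not a receptor gene and was not tested. Of the 5 genes tested, 2 rose and 2 fell, with a median log2 fold change of -0.18 (2 and 0 with library size alone). Fgfr1, a receptor through which FGF21 acts in fat, rose from 9.95 ± 3.01 to 34.3 ± 11.6 CPM (SD, n = 3; log2 1.78, edgeR, adjusted p = 0.000914). Fgfr4, the main FGF receptor of hepatocytes, rose 1.57-fold (edgeR, adjusted p = 0.0045). Klb, the gene of beta-Klotho, had 43 ± 2.03 CPM in EV and 27.1 ± 4.55 CPM in Sox4 (SD, n = 3; log2 -0.66, edgeR, adjusted p = 0.00269). Fgfr3 was 1.72-fold lower (edgeR, adjusted p = 0.00256). Neither Klb nor Fgfr3 passed the test with library size alone (edgeR, adjusted p = 0.247 and 0.119), and Kl, the classical Klotho gene, had a count of 0 in every library.

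Fgf21 is known to be induced by the fasting receptor PPARα and by ATF4, the transcription factor of the integrated stress response. Of 13 PPARα and fasting genes tested, 3 were higher, 2 lower and 8 not called, with a median log2 fold change of -0.13 (4 higher and 1 lower with library size alone). Acot1, an acyl-CoA thioesterase, rose 12.2-fold (edgeR, adjusted p = 0.00247), and Plin2, a lipid droplet coat protein, rose 3.55-fold (edgeR, adjusted p = 0.000964). Cpt1a, the entry enzyme of mitochondrial fat oxidation, rose 1.93-fold with overlapping groups (edgeR, adjusted p = 0.0376). Creb3l3, a liver transcription factor, was 1.46-fold lower (edgeR, adjusted p = 0.0137) but did not pass with library size alone.

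Within the Sox4 group the median of these fasting genes followed the same library order as Fgf21. In Sox4 1 Fgf21 deviated from the group mean log2 CPM by -1.36 and 0 of 13 fasting genes were above their group mean. In Sox4 2 the deviation of Fgf21 was 0.12 and 8 of 13 genes were above, and in Sox4 3 it was 1.24 and 13 of 13 were above. The median deviation of the 13 genes was -0.77, 0.06 and 0.6 in Sox4 1 to 3. Cyp4a14, a fatty acid hydroxylase, had 305, 795 and 11238 counts in Sox4 1 to 3, and Ehhadh, a peroxisomal oxidation enzyme, had 2693, 6665 and 15329. Their counts in EV 1 to 3 were 2516, 2968 and 1936 for Cyp4a14 and 6048, 4635 and 4751 for Ehhadh. In TMM-scaled CPM, Ehhadh had 466, 352 and 345 in EV 1 to 3 and 135, 340 and 775 in Sox4 1 to 3. Cyp4a14 had 194, 225 and 140 CPM in EV and 15.3, 40.5 and 568 CPM in Sox4. On this scale Sox4 1 and Sox4 2 were below every EV library for both genes, narrowly so for Ehhadh in Sox4 2. By raw counts Sox4 2 was below every EV library for Cyp4a14 only. Neither gene was called between the groups (edgeR, adjusted p = 0.932 and 0.896). In EV, where Fgf21 had at most 6 counts, the median deviations of the 13 genes were 0.08, 0.01 and -0.07. Other lists had the reverse order. The median deviation in Sox4 1 to 3 was 0.33, -0.15 and -0.19 for the 12 stress response genes tested. For the 12 lipogenic genes tested it was 0.21, -0.11 and -0.15. These orders are a description of 3 libraries and were not tested.

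**Figure D2:**
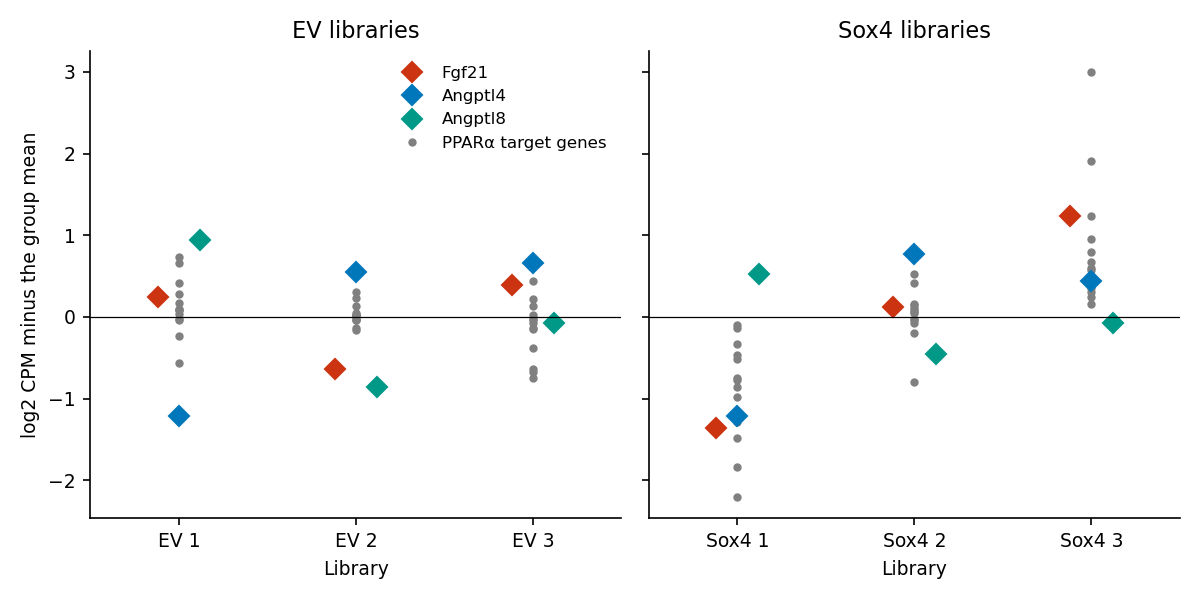
Deviation of each library's log2 CPM from its group mean for Fgf21, Angptl4 and Angptl8 (diamonds) and the 13 PPARα target genes (grey points) in EV and Sox4 libraries. Fgf21 lies at -1.36, 0.12 and 1.24 in Sox4 1 to 3 with the grey points on the same side in Sox4 1 and Sox4 3, and Angptl4 is low and Angptl8 high in replicate 1 of both groups.

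Stress response genes were mixed as well, with 4 higher, 3 lower and 5 not called of 12 tested and a median log2 fold change of 0.39 (6 higher and 2 lower with library size alone). Atf3, a stress-induced transcription factor, rose 14.6-fold (edgeR, adjusted p = 0.000413), and Vldlr, a lipoprotein receptor, rose 2.97-fold (edgeR, adjusted p = 0.0144). Phgdh, the first enzyme of serine synthesis, had 0, 1 and 2 counts in EV and 41, 31 and 34 in Sox4 (edgeR, adjusted p = 0.000274). Chac1, which degrades glutathione, fell 22-fold (edgeR, adjusted p = 6.63e-05), Asns, asparagine synthetase, fell 3.14-fold (edgeR, adjusted p = 0.00262) and Trib3, a pseudokinase, was 1.73-fold lower (edgeR, adjusted p = 0.021), the last not passing with library size alone. As in the fasting list, members were called in both directions, and the part of either list in the Fgf21 values was not tested.

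The angiopoietin-like genes did not pass the test, and Angptl4 and Angptl8 varied widely between libraries of one group. Angptl4, the fasting-induced lipase inhibitor, was counted 469, 1618 and 1826 times in EV 1 to 3, against 1117, 4323 and 3471 times in Sox4 1 to 3. Its levels were 36.1, 123 and 132 CPM in EV and 55.9, 220 and 176 CPM in Sox4. Replicate 1 was the lowest library in both groups, and the groups overlapped. With TMM it differed by a log2 fold change of 0.63 ± 0.86 (SE; edgeR, adjusted p = 0.478). The SD of its log2 CPM was 1.05 in EV and 1.06 in Sox4, higher than in 97.8% and 98.8% of genes, and that of Angptl8 was 0.9 and 0.49, higher than in 96.1% and 87.1%.

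Angptl8, the feeding-induced inhibitor, was counted 814, 237 and 424 times in EV, against 1616, 803 and 1055 times in Sox4. These were 62.7, 18 and 30.8 CPM in EV and 80.9, 40.9 and 53.4 CPM in Sox4. Here replicate 1 was the highest library in both groups, and EV 1 lay above Sox4 2 and Sox4 3. The log2 fold change was 0.65 ± 0.59 (SE; edgeR, adjusted p = 0.308), and without EV 1 it was 1.24 (edgeR, adjusted p = 0.0282). The ratio of Angptl8 to Angptl4 counts within a library was 1.74, 0.146 and 0.232 in EV and 1.45, 0.186 and 0.304 in Sox4. It was highest in replicate 1 of each group, and the log2 difference of 0.16 between the groups was within its spread (exact two-sided permutation test, p = 0.8). The 13 lipogenic and insulin-responsive genes, listed because Angptl8 is known to follow feeding, had 11 of 12 tested lower and 0 higher, with a median log2 fold change of -0.94 (7 lower and 0 higher with library size alone). Scd1, the stearoyl-CoA desaturase, fell 15.7-fold, Fasn, fatty acid synthase, fell 5.69-fold and Elovl6, a fatty acid elongase, fell 4-fold (edgeR, adjusted p = 0.000189, 5.15e-05 and 5.96e-06).

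Angptl6, a little-expressed relative, had 25, 22 and 19 counts in EV and 28, 20 and 39 in Sox4. Its level was 1.66 ± 0.273 CPM in EV and 1.46 ± 0.48 CPM in Sox4 (SD, n = 3), and the groups overlapped. The log2 fold change was -0.17 ± 0.28 (SE; edgeR, adjusted p = 0.713).

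Around the lipase that ANGPTL proteins act on, 2 of 8 tested genes rose and 4 fell, with a median log2 fold change of -0.66 (2 and 2 with library size alone). Lpl, lipoprotein lipase itself, had 21.7 ± 5.99 CPM in EV and 79.5 ± 50.1 CPM in Sox4 (SD, n = 3; log2 1.88, edgeR, adjusted p = 0.0256). Angptl2, another angiopoietin-like gene, had 4, 0 and 4 counts in EV and 75, 33 and 56 in Sox4 (edgeR, adjusted p = 0.000953). Lipc, hepatic lipase, fell 2.53-fold (edgeR, adjusted p = 6.4e-05), and Lmf1, a maturation factor for these lipases, fell 2.18-fold (edgeR, adjusted p = 7.7e-05). Apoc2, the apolipoprotein that activates lipoprotein lipase, was 2.33-fold lower (edgeR, adjusted p = 0.0283) and did not pass with library size alone. The summed stellate cell markers (with Reln) and Kupffer cell markers given above were higher in the same libraries as Lpl and Angptl2, and their part in these values was not tested.

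The fetuin genes, neighbours on chromosome 16, parted: Fetub fell in all 3 Sox4 libraries and Ahsg did not pass the test. Fetub, which encodes fetuin-B, an inhibitor of the egg-coat protease ovastacin, had 10217, 12436 and 17609 counts in EV and 3269, 4449 and 2020 in Sox4. Its levels were 786, 943 and 1280 CPM in EV, a mean of 1000 ± 251 (SD, n = 3), and 164, 227 and 102 CPM in Sox4, a mean of 164 ± 62.3 (SD, n = 3). The lowest EV library was above the highest Sox4 library. This was a log2 fold change of -2.61 ± 0.39 (SE; edgeR, adjusted p = 0.000133), and in the 6 fits that each left out 1 library it lay between -2.91 and -2.36. By level Fetub moved from position 143 to position 729 among all genes.

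Ahsg, which encodes fetuin-A, an inhibitor of mineral precipitation in blood, had 106524, 139139 and 148874 counts in EV and 230412, 205873 and 247306 in Sox4. These were 8200, 10600 and 10800 CPM in EV and 11500, 10500 and 12500 CPM in Sox4. Sox4 2 lay within the EV range, so the groups overlapped. With TMM the log2 fold change was 0.23 ± 0.15 (SE; edgeR, adjusted p = 0.296), and with library size alone it was 0.7 (edgeR, adjusted p = 0.0054). The ratio of Ahsg to Fetub counts within a library needs no scaling between libraries. It was 10.4, 11.2 and 8.45 in EV and 70.5, 46.3 and 122 in Sox4, a log2 difference of 2.89 with no overlap. With 3 libraries against 3 the exact permutation test cannot give a two-sided p below 0.1, which it gave here (0.24 after adjustment over 12 ratios).

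On GRCm38, Ahsg lies on the plus strand of chromosome 16 from 22891277 to 22899449 and Fetub from 22918334 to 22939778, 18884 bases further on. Hrg, which encodes the histidine-rich glycoprotein, a relative of the fetuins, is the next gene after Fetub, and its counts were 15354, 17700 and 21471 in EV and 4754, 3625 and 3447 in Sox4. It fell 6.83-fold (edgeR, adjusted p = 2.68e-06). Kng2, the kininogen gene that follows on the opposite strand, had a log2 fold change of 0.05 (edgeR, adjusted p = 0.793), and Kng1, the other kininogen gene, fell 1.9-fold (edgeR, adjusted p = 0.000848). Reads of the kininogen genes could be shared between the copies. Dnajb11, a chaperone gene before Ahsg, was lower, with a log2 fold change of -1.01 (edgeR, adjusted p = 0.00052). Gm30505, an antisense gene annotated across Ahsg, had 20 to 45 counts in each library, and since the strand setting of the counting is not known its reads cannot be told apart from those of Ahsg.

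**Figure D3:**
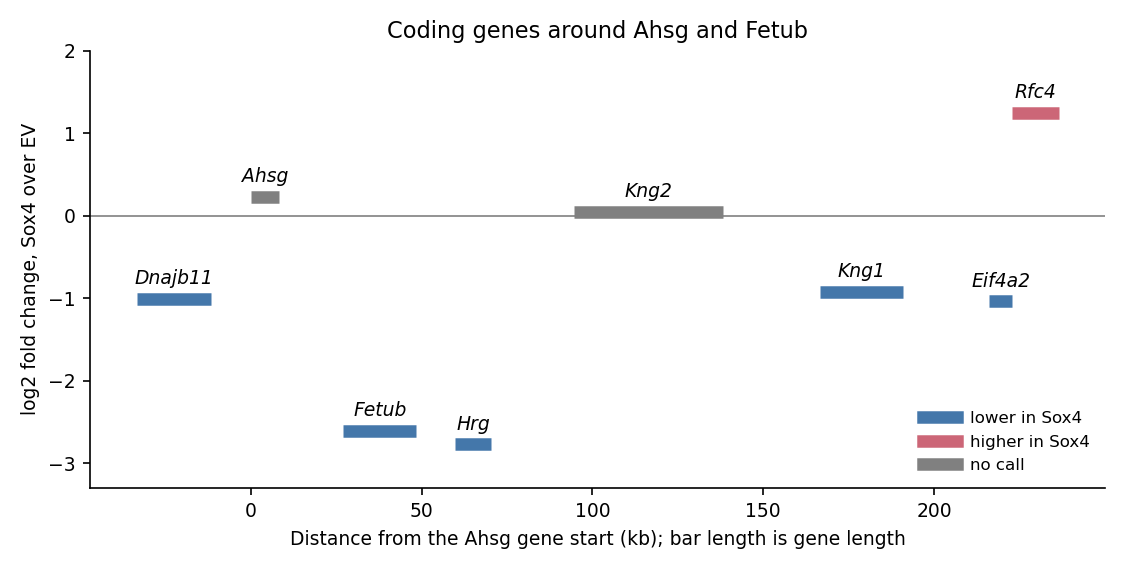
Log2 fold change (Sox4 over EV, TMM-scaled) of the coding genes around Ahsg and Fetub against their distance in kb from the Ahsg start, with bar length as gene length and colour as the call. Fetub (-2.61) and Hrg (-2.77) lie between Ahsg (0.23) and Kng2 (0.05), which were not called.

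Of 10 tested genes of the cystatin and inter-alpha-trypsin inhibitor families and the insulin receptor pathway that fetuin-A is known to touch, 2 were higher and 5 lower, with a median log2 fold change of -0.24. Itih1 fell 3.98-fold and Itih4 fell 1.94-fold (edgeR, adjusted p = 9.44e-06 and 0.000864), whereas Itih3, which encodes another heavy chain of this inhibitor family, rose 1.49-fold (edgeR, adjusted p = 0.00592). Irs1, an adaptor of the insulin receptor, rose 2.32-fold (edgeR, adjusted p = 0.000201). With library size alone 5 of the 10 were higher and 4 lower.

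Of the carriers, Rbp4 fell while its partner Ttr did not pass the test. Rbp4, the plasma carrier of retinol, had 28691, 27490 and 25909 counts in EV and 27196, 20430 and 27040 in Sox4. These were 2210, 2090 and 1880 CPM in EV, a mean of 2060 ± 166 (SD, n = 3), and 1360, 1040 and 1370 CPM in Sox4, a mean of 1260 ± 186 (SD, n = 3). The groups did not overlap after TMM scaling. This was a log2 fold change of -0.71 ± 0.15 (SE; edgeR, adjusted p = 0.00421), and with library size alone it was -0.24 (edgeR, adjusted p = 0.213). Rbp4 lies on the minus strand of chromosome 19 (GRCm38, 38116629 to 38125281), and Ffar4, a fatty acid receptor gene next to it, rose from at most 2 counts in EV to 54 to 58 counts in Sox4 (edgeR, adjusted p = 9.35e-05).

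Ttr, the carrier of thyroid hormone and of the RBP4-retinol complex, had 75768, 73035 and 65038 counts in EV and 111177, 88831 and 99155 in Sox4. Its level was 5360 ± 578 CPM in EV and 5040 ± 518 CPM in Sox4 (SD, n = 3), with overlapping groups. The log2 fold change was -0.09 ± 0.13 (SE; edgeR, adjusted p = 0.663), and 0.38 with library size alone (edgeR, adjusted p = 0.0644). Counts of Rbp4 per count of Ttr were 0.379, 0.376 and 0.398 in EV and 0.245, 0.23 and 0.273 in Sox4. All 3 Sox4 ratios were below the EV ratios, a log2 difference of -0.63 that does not depend on scaling (exact two-sided permutation test, p = 0.1, the smallest possible with 3 against 3, and 0.24 after adjustment).

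Among 9 tested genes of retinol and thyroid hormone handling, 2 rose and 6 fell, with a median log2 fold change of -0.68 (3 higher and 4 lower with library size alone). Serpina7 encodes thyroxine-binding globulin, another thyroid hormone carrier of plasma. It rose from 16.7 ± 8.59 to 142 ± 36.4 CPM (SD, n = 3, log2 3.09, edgeR, adjusted p = 0.00145). The 3 genes that fell most were Thrsp, a thyroid hormone responsive gene of fat synthesis (53-fold), Dio1, the deiodinase that activates thyroxine (13.5-fold), and Rdh10, a retinol dehydrogenase (3.17-fold), with edgeR adjusted p of 2.78e-06, 2.78e-06 and 1.71e-05.

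Selenop, the plasma selenium carrier, had 68113, 86751 and 98745 counts in EV and 83421, 112516 and 100703 in Sox4. Its level was 5240, 6580 and 7160 CPM in EV and 4180, 5740 and 5090 CPM in Sox4. The groups overlapped, since Sox4 2 lay above EV 1. With TMM the log2 fold change was -0.34 ± 0.19 (SE; edgeR, adjusted p = 0.15), and 0.13 with library size alone (edgeR, adjusted p = 0.542). Ccdc152, a coding gene on the opposite strand that overlaps Selenop on chromosome 15 (GRCm38, 3268547 to 3280508), had 126 to 196 counts in EV and 403 to 619 in Sox4 (log2 1.24, edgeR, adjusted p = 0.000899), and without the strand setting its reads cannot be told apart from those of Selenop.

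Among the genes that handle selenium and make selenoproteins, 2 of 17 tested were higher and 11 lower, with a median log2 fold change of -0.44 (4 higher and 5 lower with library size alone). Scly, which recovers selenium from selenocysteine, fell 3.43-fold (edgeR, adjusted p = 7.64e-06). Sephs2, selenophosphate synthetase, fell from 954 ± 39.9 to 353 ± 20.8 CPM (SD, n = 3; log2 -1.43, edgeR, adjusted p = 1.64e-05). Sepsecs, which charges the selenocysteine tRNA, fell 2.46-fold (edgeR, adjusted p = 1.45e-05). Txnrd1, a selenoprotein reductase, rose 2.67-fold (edgeR, adjusted p = 2.67e-05), and Sephs1, a relative of Sephs2, rose 1.4-fold (edgeR, adjusted p = 0.00402).

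Dividing each gene by albumin in the same library gave another scale. Alb, the most abundant carrier, was 1.49-fold lower in Sox4 with TMM (edgeR, adjusted p = 0.0245) and was not called with library size alone (edgeR, adjusted p = 0.627). Relative to Alb, the log2 difference was 6.01 for Fgf21, 0.8 for Ahsg and -2.08 for Fetub, each without overlap of the groups (exact two-sided permutation test, p = 0.1, the smallest possible, and 0.24 adjusted over 12 ratios). Rbp4 differed by -0.15 with overlapping groups (exact permutation test, p = 0.6). Ttr, Selenop, Angptl4, Angptl6 and Angptl8 differed by 0.48, 0.23, 1.2, 0.36 and 1.36, all with overlap (exact permutation tests, p = 0.2 to 0.3). The direction of Fgf21, Fetub, Rbp4, Ahsg, Angptl4 and Angptl8 was therefore the same on all 3 scales, and that of Angptl6, Selenop and Ttr was not. Only Fgf21 and Fetub passed the test both with TMM and with library size alone.

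**Figure D4:**
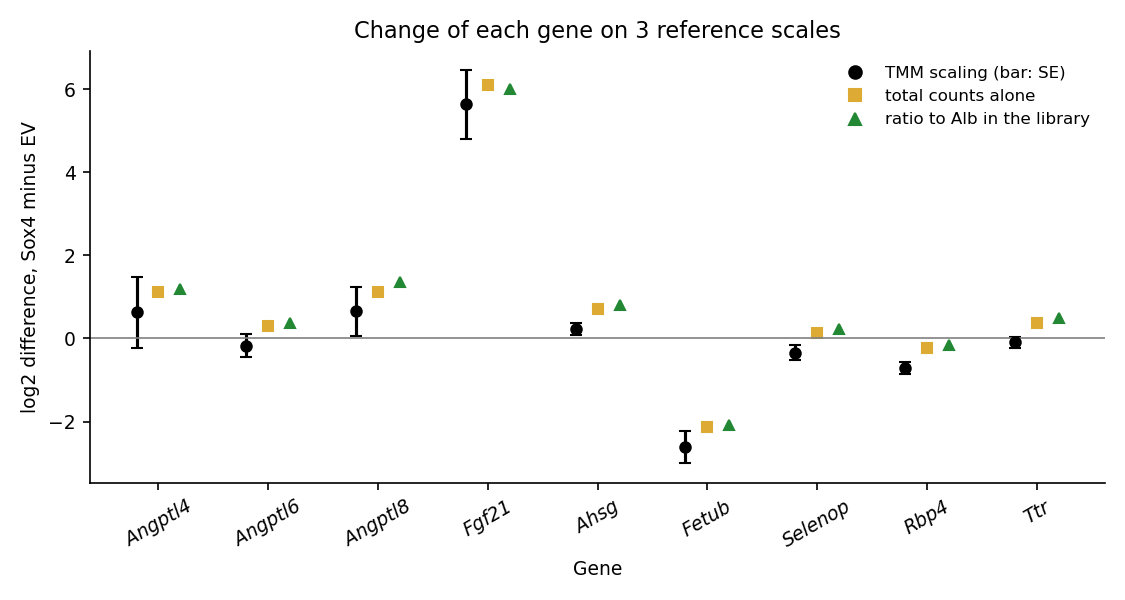
Log2 difference between Sox4 and EV for each of the 9 genes with TMM scaling (black, bars are SE, n = 3), with total counts alone (yellow) and as the ratio to Alb within a library (green). Fgf21 lies at 5.63, 6.09 and 6.01 and Fetub at -2.61, -2.14 and -2.08, while Angptl6, Selenop and Ttr change sign between scales.

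Compared per kilobase of exon, the 9 transcripts spanned a wide range of levels. In EV the highest levels were those of Ttr, 4520 ± 487 CPM per kilobase, and Ahsg, 4480 ± 654 (SD, n = 3), whose values overlapped. Selenop followed at 2230 ± 346, Rbp4 at 1530 ± 124 and Fetub at 511 ± 128 CPM per kilobase, each apart from its neighbours in the order. Angptl8, at 42.9 ± 26.6, and Angptl4, at 27.4 ± 15 CPM per kilobase, overlapped, and Angptl6, at 1.05 ± 0.173, was above Fgf21, at 0.341 ± 0.159. In Sox4 libraries Ahsg, at 5240 ± 458, was above Ttr, at 4250 ± 436 CPM per kilobase, in all libraries. Fetub, at 83.7 ± 31.8, now overlapped Angptl8, at 67.5 ± 23.6 CPM per kilobase, and Fgf21, at 17.3 ± 13.6, overlapped Angptl4, at 42.5 ± 24, and was above Angptl6, at 0.926 ± 0.303 CPM per kilobase. Together the 9 genes took 1.93 to 2.21% of all counts in EV and 2.62 to 2.87% in Sox4, of which Ahsg alone took 0.706 to 0.916% and 1.23 to 1.47%.

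Other secreted products of hepatocytes give the setting. Of 13 other plasma carriers, 0 were higher and 9 lower, with a median log2 fold change of -0.75 (2 higher and 6 lower with library size alone). Azgp1, a lipid-mobilising glycoprotein, fell 4.74-fold, Hp, haptoglobin, 4.25-fold, and Cpn2, a carboxypeptidase subunit, 4.22-fold (edgeR, adjusted p = 4.57e-06, 2.31e-05 and 3.8e-06). Of 17 other hepatokines, 5 were higher and 7 lower (6 and 2 with library size alone). Inhba, an activin subunit, rose 3.43-fold, and Lect2, a chemotactic hepatokine, rose 1.85-fold (edgeR, adjusted p = 3.3e-05 and 0.000993). Hgfac, the activator of hepatocyte growth factor, fell 7.06-fold, and Fgl1 fell 2.77-fold (edgeR, adjusted p = 2.2e-06 and 0.000155). Of 14 liver-enriched transcription factors, 4 were higher, 4 lower and 6 not called (8 higher and 2 lower with library size alone). Over all 130 tested genes of these surrounding lists, 26 were higher and 64 lower with TMM, and 42 higher and 35 lower with library size alone. Adipocytes, the other main source of Rbp4 and Angptl4, were represented by 6 markers with at most 3 counts in every library, of which Adipoq, Lep and Adig had 0 throughout.

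**Figure D5:**
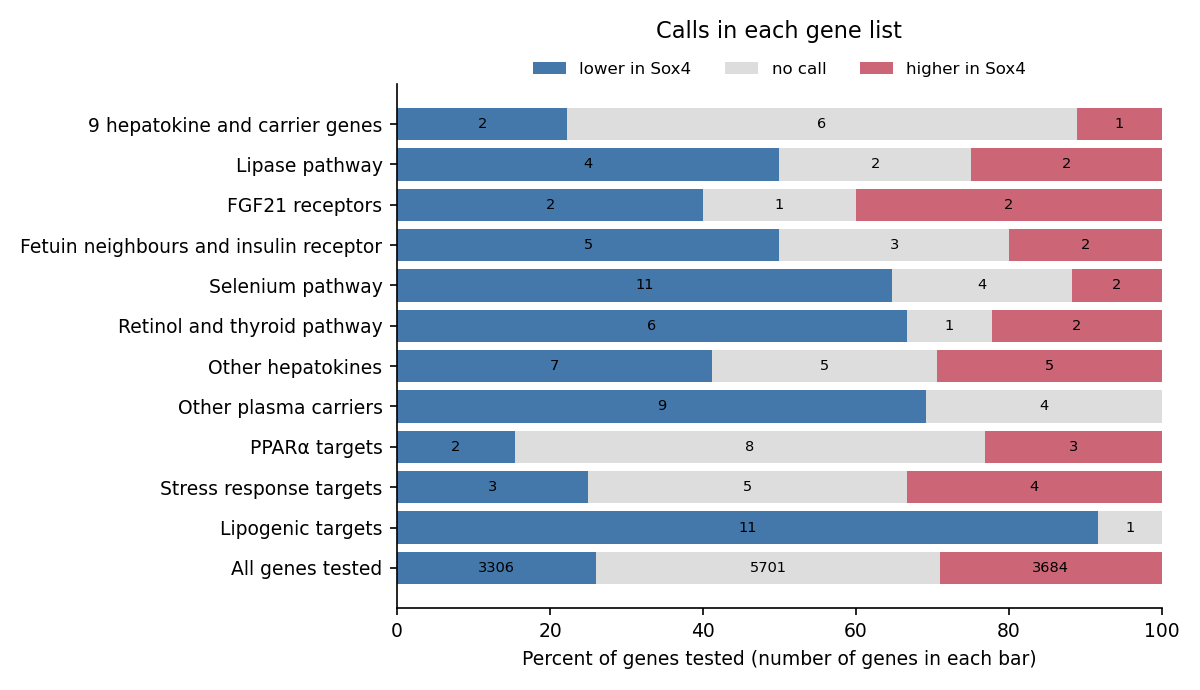
Percent of tested genes called lower (blue), not called (grey) or higher (red) in Sox4 with TMM scaling for the 9 genes, 10 surrounding lists and all genes, with the number of genes in each bar. The 9 genes have 2 lower and 1 higher, the other plasma carriers 9 lower and 0 higher, and all genes 3306 lower and 3684 higher.

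For each of the 9 genes the most similar other gene was sought by Pearson's r of log2 CPM over the 6 libraries, taking the 9017 genes whose counts averaged 100 or more. Fgf21 was most like Id2, an inhibitor of bHLH factors (r = 0.998), Fetub like Fyco1 (r = 0.998) and Rbp4 like Tymp, thymidine phosphorylase (r = 0.998). Angptl4 was most like Mettl9 (r = 0.979), Angptl8 like Coq7 (r = 0.987), Angptl6 like Acnat2 (r = 0.954), Ahsg like Hnrnpdl (r = 0.991), Selenop like Lpin2 (r = 0.993) and Ttr like Gtf2h4 (r = 0.987). These values are the highest of many over 6 points that share group and scaling, and are given as a description.

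Of the nearest genes on either side, several had too few counts to test. Fut1, next to Fgf21 on chromosome 7 (GRCm38, 45613886 to 45615490, minus strand), had 0, 0 and 1 counts in EV and 10, 6 and 7 in Sox4. Dock6, in which Angptl8 lies on the opposite strand of chromosome 9 (GRCm38, 21835510 to 21837347), had 210 to 439 counts in EV and 181 to 305 in Sox4, a log2 fold change of -0.88 (edgeR, adjusted p = 0.0389), and its reads may be confused with those of Angptl8. Ghr, the growth hormone receptor gene next to Selenop, was lower, with a log2 fold change of -1.27 (edgeR, adjusted p = 3.59e-05), and Ppan, next to Angptl6, was not called (0.35; edgeR, adjusted p = 0.11).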

How the data were processed

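Counts from 3 EV and 3 Sox4 hepatocyte libraries were analysed, grouped by the sample titles. Per the labels, the authors aligned reads to GRCm39 with STAR 2.7.10b and counted them with featureCounts 2.0.1, giving the deposited raw counts per gene. The annotation release, strand setting and handling of multi-mapping reads were not given in the sources used here. A deposited normalized signal, counts divided by DESeq2 size factors, was used as an alternative. Genes were kept with edgeR 4.0.16 filterByExpr (minimum count 10, minimum total 15), scaled by TMM and tested with the quasi-likelihood F test (Benjamini-Hochberg, 0.05) in R 4.3.3, after the code was tested on simulated data. SE values are those of a difference of mean log2 CPM (prior count 2). Ratios within libraries were tested by exact permutation. DESeq2 1.42.0 and limma 3.58.1 were alternatives. The 9 genes and the lists were chosen with earlier results of these data known. Named were all 9 genes, overlapping and neighbouring genes, up to 3 called genes per list and direction with the largest change, and the most similar gene of each; Kng1, Kng2, Cyp4a14, Ehhadh and Kl were named after their values were seen. The study gives 3 animals for its RNA-seq groups. Gene positions and exon lengths are from GENCODE M21 on GRCm38. Chi-square per degree of freedom between replicates was 19.3 to 69.8, so no library was counted as a copy. Values of some genes in the surrounding lists are not reported here.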

Additional observations from a re-analysis of the deposited data

How the results depend on the processing

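Of 143 values of the 9 genes under other settings, 134 kept direction and side of the threshold, 4 gained the threshold, 1 lost it and 4 reversed. With library size alone, 2 of the 9 genes were higher and 1 lower, and 42 and 35 of the genes in the surrounding lists were higher and lower. In that setting Angptl6, Selenop and Ttr reversed to 0.29, 0.13 and 0.38 on the log2 scale, none of them called, and leaving out 1 library moved Angptl6 between -0.44 and 0.03, above 0 without Sox4 replicate 2. The larger effective size of the Sox4 libraries under TMM, 1.49 against 1.07 for totals, sets this shift by construction. Leaving out 1 library gave 1 to 2 of the 9 genes higher, with Angptl8 added without EV replicate 1. Same-numbered libraries correlated by 0.27, -0.09 and 0.13 in their deviations, so the numbers were not taken as pairs. With the replicate number as a block, 3 of the 9 genes were higher, Angptl4 (0.63, edgeR, adjusted p = 0.00149) and Angptl8 (0.77, edgeR, adjusted p = 0.00295) being added, and 7362 of all genes were called against 6990. Over the other settings 5937 to 8092 genes were called. Ratios within libraries are the same on the deposited normalized values by construction. Leaving out 1 library, the log2 difference of Angptl8 to Angptl4 ranged from -0.71 (without Sox4 replicate 1) to 1.23 (without EV replicate 1), that of Rbp4 to Alb from -0.26 to 0.02 (above 0 without EV replicate 1), and the other 10 ratios kept their direction. For Angptl6 and for Fgf21 in EV, low counts limit precision.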
